A study of Bos taurus with 96 samples.

Results

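The genes described here make, break down and sense oxidised forms of cholesterol (oxysterols) in the fat depots and muscle of beef steers. They are CH25H, CYP7B1, CYP27A1, HSD3B7, GPR183, the liver X receptors (LXR) NR1H2 and NR1H3, and the LXR targets ABCA1, ABCG1 and MYLIP, 10 genes in all. Probes were assigned to them through the RefSeq accession on the array or the gene names in the study's own probe tables. Of the 10661 genes named on the tested probes, 8 were members, with 18 tested probes between them. CYP7B1 and ABCG1 matched no probe and were not analysed here. The members were chosen by measured values: CH25H was selected on its level in intramuscular fat against subcutaneous fat and muscle, and the rest by their link to it. The levels of CH25H over tissues are therefore a description, with no test.

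The 96 arrays each measured 1 sample of snap-frozen tissue from a steer of the Angus, Hereford or Wagyu x Angus breed. The labels give 259 days in a feedlot for every array, and the steers of the fat depots were about 26 months old at slaughter. The 5 fat depots had 12 arrays each, 4 per breed, all from steers fed on pasture just after weaning. They were IMF (intramuscular, dissected from the M. longissimus dorsi), SC (subcutaneous, over the rump), Omen (omental), Kid (around the kidney) and Inter (between muscles). Longissimus dorsi muscle with its marbling left in place (LD) had 36 arrays, 24 from pasture-fed steers, 8 per breed, and 12 from steers given supplement, 4 per breed. Pasture and supplement name the feed just after weaning. By the study's methods the steers of the fat depots were later fed grain in the feedlot. Per the study's methods, the fat depots came from a shared set of steers, but the labels do not tie arrays to animals, so depots were compared as separate samples and p-values take no account of shared animals. Per those methods LD also included steers of an earlier slaughter, which the labels do not mark, so the days in the feedlot and the age of some LD steers are uncertain.

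CH25H, cholesterol 25-hydroxylase, adds a hydroxyl group to cholesterol to give 25-hydroxycholesterol, and is known as a gene that macrophages switch on during inflammation. CYP27A1 makes 27-hydroxycholesterol, CYP7B1 and HSD3B7 act further down the route that turns oxysterols into bile acids, and the product of CH25H and CYP7B1 is the ligand of GPR183, a receptor that guides the movement of B cells and other immune cells. Oxysterols also activate LXR, which raises the transcription of the cholesterol exporters ABCA1 and ABCG1 and of MYLIP, whose product marks the low-density lipoprotein receptor for degradation.

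All values are on a log2 scale on which 0 is the 75th percentile of the processed signals of the same array. A level of one gene cannot be set against that of another on this scale, because probes differ in brightness. The share of probes well above background had a median of 82.7% in IMF and 76.9% in SC, and ranged from 66.2% to 81.1% over the LD arrays. IMF was not free of muscle. The mean level of 11 skeletal muscle markers ranged from 5.86 to 7.71 in IMF and from 8.11 to 8.92 in LD, but from -4.48 to -3.12 in SC, and 1 Inter array reached 5.51. The mean of 9 adipocyte markers ranged from 2.35 to 4.48 in IMF, from 4.46 to 5.14 in SC and from -0.58 to 2.28 in LD. Because these are bulk samples, fewer cells of a type and less RNA per cell cannot be told apart. Scan day also moved with tissue: all 12 IMF arrays were scanned on day 3, all 12 Inter arrays on day 2 and 11 of 12 SC arrays on day 1. On 3 tissues the array least like its own group stood apart in a marker list, namely the Inter array above, an SC array with smooth muscle markers at 5.28 against an SC median of 1.85, and a Kid array with macrophage markers at 4.31 against a Kid median of 2.16.

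CH25H was highest in IMF. It ranged from 1.20 to 3.68 there, with a median of 2.71 and a mean of 2.62 ± 0.70 (SD, n = 12). In SC it ranged from -2.68 to -1.06, with a median of -1.96 and a mean of -1.89 ± 0.59 (n = 12). No IMF array overlapped any SC array, and the means differed by 4.52, or 22.9-fold.

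The means of the other fat depots lay between these. CH25H ranged from -0.89 to 2.74 in Omen (median 0.16, mean 0.37 ± 1.08), from -0.84 to 1.58 in Inter (median 0.31, mean 0.25 ± 0.63) and from -0.93 to 1.58 in Kid (median -0.06, mean 0.11 ± 0.78, n = 12 each). Their means differed by 0.27 or less, which is within the spread of each depot, and all 3 depots lay wholly above SC. Of the 12 IMF arrays, 11 lay above every Inter array and 11 above every Kid array, but only 6 lay above every Omen array. LD ranged from -2.95 to 0.74 (median -1.39, mean -1.32 ± 0.79, n = 36). LD overlapped SC, with 13 of 36 LD arrays above every SC array and a difference of 0.57, while all IMF arrays lay above all LD arrays by a mean of 3.95, or 15.4-fold. The order was thus IMF, then Omen, Inter and Kid together, then LD and SC.

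**Figure D1:**
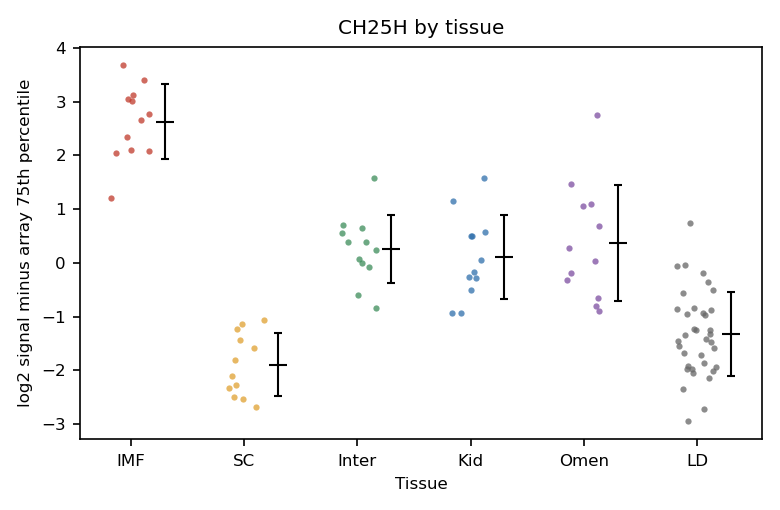
Level of CH25H on each array (points), with the mean and SD of each tissue (bars), as log2 signal minus the 75th percentile of the array. IMF sits at 1.20 and above and SC at -1.06 and below. Inter, Kid and Omen overlap each other, have means between those of IMF and SC, and reach into the range of IMF at up to 1.58, 1.58 and 2.74.

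Within scan day 3, the 12 IMF arrays exceeded the 8 LD arrays by 3.65 and the 10 Omen arrays by 2.08. Only 1 SC array shared a day with IMF, and the mean of IMF exceeded it by 3.68. CH25H was well above background on all 96 arrays by this probe (A_73_113925). A second probe of the gene (A_73_P116681), outside the tested set, was well above background on 2 IMF arrays and 1 Omen array only, and gave no usable level. The markers that were higher in IMF than in SC included 6 of 6 smooth muscle genes (median difference 2.97), 5 of 6 Schwann cell genes (median 3.71, with the remaining 1 lower) and all 11 skeletal muscle genes. The 9 measured macrophage markers were all lower in IMF (background 64.2%, 33.0% as lower), and their mean level ranged from -1.21 to 0.96 in IMF and from 1.52 to 3.43 in SC. Of the remaining lists, 8 of 9 adipocyte genes were lower in IMF, and 5 of 7 fibroblast and progenitor genes were lower and 2 higher. For the endothelium 3 of 7 were lower, for B and T cells 1 of 7, and for the mesothelium 1 of 5 with 2 higher. LD had the highest skeletal muscle level and a mean CH25H of -1.32. The part of any cell type, muscle included, in the level of CH25H was not tested.

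CYP27A1 ran the other way between IMF and SC. Its level ranged from 1.31 to 2.60 in IMF (median 2.11), from 3.55 to 4.26 in SC (median 3.92) and from -0.25 to 0.75 in LD (median 0.28). IMF lay wholly between the other 2 tissues. It was lower in IMF than in SC by -1.87 ± 0.14 (SE, limma adjusted p = 3.69e-11) and higher in IMF than in LD by 1.70 ± 0.10 (adjusted p = 7.53e-20). All 4 probes of the gene gave the same calls in both comparisons.

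Of the remaining depots, Inter (2.57 to 3.87) and Omen (2.87 to 3.65) were lower than SC, by -0.46 (adjusted p = 0.00395) and -0.66 (adjusted p = 2.08e-05). In Inter, 1 of the 4 probes did not pass (adjusted p = 0.116), and the call was lost with slide as a random block (-0.49, adjusted p = 0.127) and with quantile normalization (-0.31, adjusted p = 0.0615). Kid ranged from 2.74 to 5.81, and its difference from SC of -0.23 did not pass (adjusted p = 0.512, 95% interval -0.79 to 0.33). The highest Kid value was that of the array with high macrophage markers. The order was SC, Kid, Inter, Omen, IMF and LD, in which SC and Kid, Kid and Inter, and Inter and Omen did not pass the test.

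HSD3B7, the steroid dehydrogenase that acts after the 7-alpha-hydroxylases, followed the direction of CYP27A1 with smaller differences. It ranged from -0.80 to 0.06 in IMF, from 0.09 to 1.04 in SC and from -1.39 to 0.40 in LD. IMF and SC did not overlap, with a difference of -0.80 ± 0.13 (adjusted p = 9.12e-06), while IMF and LD overlapped throughout, with a difference of 0.35 (adjusted p = 0.00575) that did not pass with slide as a random block (adjusted p = 0.14). Its second probe gave -0.37 between IMF and SC (adjusted p = 0.00932). With scan day as a block on IMF and SC, which rests on 1 SC array, the call between them was lost (-0.67). It was also lost with the deposited values, unscaled between arrays (-0.17, adjusted p = 0.448). The call for Omen against SC was lost with a scan-day block too (-0.48), again resting on 1 SC array. The order was SC, Inter, Kid, Omen, IMF and LD, in which only IMF and LD, of neighbours, passed the test. Kid contained 1 array at 2.03, again the array rich in macrophage markers. Without the array least like each tissue, the difference of Kid from SC went from -0.40 (adjusted p = 0.176) to -0.61 (adjusted p = 0.00785).

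Most of the other genes of oxysterol formation, inactivation and esterification were also lower in IMF than in SC. Of 19 with a probe, of 27 listed, 14 were lower, 2 higher and 3 did not pass, and the median difference was -0.76, against 0.00 over all probes. Over all tested probes, 64.2% passed in this comparison, 33.0% as lower in IMF. The lowest were CYP46A1, the 24-hydroxylase best known from brain, at -1.44 (adjusted p = 4.96e-09), and LCAT, which esterifies cholesterol in plasma, at -1.31 (adjusted p = 1.91e-06). ACOX2, a peroxisomal oxidase of bile acid intermediates, was higher by 0.85 (adjusted p = 3.21e-06), and SOAT2, which esterifies cholesterol inside cells, by 0.52 (adjusted p = 0.012).

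Against LD, these 19 genes did not lean one way: 4 were higher in IMF, 4 lower and 11 did not pass, where 75.3% of all probes passed, with a median of 0.04 against -0.04 over all probes. LCAT was the highest in IMF against LD, by 2.37 (adjusted p = 1.53e-20), and HSD11B1, a reductase that also converts 7-ketocholesterol, the lowest, by -0.73 (adjusted p = 0.000186). Inter, Kid and Omen had 6, 5 and 7 of the 19 lower than SC and 4, 5 and 3 higher, beside backgrounds of 48.8%, 41.7% and 45.7% in either direction. LCAT was the lowest of the list in each of those 3 depots, at -0.98, -1.29 and -1.17 (adjusted p = 5.4e-05, 8.6e-07 and 1.1e-05).

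GPR183 was low in IMF although CH25H was high there. It ranged from -3.71 to -1.87 in IMF (median -2.56, n = 11, as 1 array had no usable spot), from -2.04 to -0.40 in SC (median -0.98) and from -3.99 to -2.20 in LD (median -3.13). Only 1 SC array reached down into the range of IMF. The difference from SC was -1.46 ± 0.22 (adjusted p = 3.23e-06). The difference from LD was 0.51 ± 0.16 (adjusted p = 0.0028), but it was 0.01 (adjusted p = 0.93) after normexp background correction and 0.27 (adjusted p = 0.101) with quantile normalization.

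The highest levels were in Inter (-0.79 to 0.38, median -0.28) and Omen (-1.38 to 1.54, median -0.63, n = 11). Both exceeded SC, by 0.80 (adjusted p = 0.000439) and 0.72 (adjusted p = 0.0348). Inter against SC lost its call with scan day as a block over all 96 arrays (0.52, adjusted p = 0.0873) and with slide as a random block (0.64, adjusted p = 0.0674). No IMF array overlapped any Inter, Kid or Omen array. The order was Inter, Omen, Kid, SC, IMF and LD, in which Inter and Omen, Omen and Kid, and Kid and SC did not pass the test. Omen against SC lost its call without the array least like each tissue (0.64, adjusted p = 0.0597) and with slide as a random block (0.62, adjusted p = 0.0731). With scan day as a block on Omen and SC, which rests on 1 SC array, the call was also lost and the difference was 0.03. B and T cell markers, the cells in which GPR183 is best known, were counted against SC. In Omen 4 of 7 were higher and 2 lower (background 45.7%). In Inter 1 was higher and 2 lower (background 48.8%), and in Kid 3 were higher and 1 lower (background 41.7%). In IMF 0 were higher and 1 lower (background 64.2%). The mean level of these markers ranged from -1.79 to -0.72 in Omen, from -2.36 to -1.55 in Inter and from -2.11 to -1.36 in SC. Their part in GPR183 was not tested.

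NR1H3, which encodes LXR alpha, was lowest in IMF and LD. It ranged from 2.11 to 3.11 in IMF (median 2.64), from 3.15 to 4.02 in SC (median 3.58) and from 2.26 to 3.05 in LD (median 2.72, n = 35). IMF and SC did not overlap, and the difference was -0.94 ± 0.10 (adjusted p = 3.23e-08), or -0.33 (adjusted p = 0.0733) with the deposited values, which have no scaling between arrays. The 3 probes gave differences from -1.02 to -0.86. IMF and LD differed by -0.04 on the brightest probe (adjusted p = 0.667, 95% interval -0.19 to 0.12), while the other 2 probes were lower in IMF, by -0.32 and -0.27 (adjusted p = 0.00052 and 0.0137), and on the first quantile normalization gave 0.29 (adjusted p = 0.000418) and scan day as a block -0.24 (adjusted p = 0.0153). Inter (2.47 to 3.19) and Omen (2.75 to 3.51) were lower than SC, by -0.69 and -0.42 (adjusted p = 2.92e-06 and 0.00122). With scan day as a block on Omen and SC, which rests on 1 SC array, the latter call was lost (-0.52). Kid, from 2.58 to 3.85, differed by -0.09 (adjusted p = 0.608), although 1 of the other 2 probes passed as lower (-0.29, adjusted p = 0.0469). The order was SC, Kid, Omen, Inter, LD and IMF, in which only Inter and LD, of neighbours, passed (0.21, adjusted p = 0.00578), and the other 2 probes did not (0.04 and 0.14, adjusted p = 0.689 and 0.227).

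NR1H2, which encodes the widely expressed LXR beta, varied least of the members. Its tissue means lay between 2.80 in Inter and 3.24 in LD. Inter, Kid and Omen were each lower than SC on all 3 probes. On the brightest they differed by -0.40, -0.22 and -0.31 (adjusted p = 2.79e-06, 0.00934 and 0.00288). With quantile normalization that probe did not pass for Kid (-0.15, adjusted p = 0.0635) or Omen (-0.15, adjusted p = 0.114). Between IMF and SC the brightest probe gave -0.16 (adjusted p = 0.018), but the other 2 gave 0.06 and -0.05 (adjusted p = 0.588 and 0.768). The call was lost with slide as a random block (-0.12, adjusted p = 0.263) and with scan day as a block on those tissues (-0.27), which rests on 1 SC array. Between LD and SC the brightest probe gave 0.04 (adjusted p = 0.529), whereas the other 2 were higher in LD, by 0.37 each (adjusted p = 0.00858 and 0.0315). Quantile normalization gave -0.37 on the brightest (adjusted p = 1.57e-08). The order on the brightest probe was LD, SC, IMF, Kid, Omen and Inter, in which only SC and IMF, of neighbours, passed.

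LXR acts as a pair with a retinoid X receptor and with cofactors. Of 11 such genes with a probe, of 18 listed, 4 were higher in IMF than in SC, 3 lower and 4 did not pass, near the background of 64.2%, with a median of -0.01. PPARGC1A, a coactivator abundant in oxidative muscle, was higher by 1.51 (adjusted p = 4.14e-06), and the adipocyte regulator PPARG was lower by -1.35 (adjusted p = 1.55e-07). LD differed from SC in the same genes by 3.13 and -4.93 (adjusted p = 1.93e-24 and 3.13e-33). Proteins that bind or move oxysterols and cholesterol had 2 of 17 higher and 9 lower in IMF, also near that background, with a median of -0.31. SCAP, the sterol-sensing escort of the SREBP transcription factors, was lowest at -1.40 (adjusted p = 7.53e-09) and OSBP2, an oxysterol-binding protein, highest at 1.27 (adjusted p = 4.15e-05).

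ABCA1, the exporter of cellular cholesterol, did not pass the test between IMF and SC. It ranged from -2.44 to -1.19 in IMF (median -1.94) and from -2.28 to -1.19 in SC (median -1.72). The difference was -0.21 ± 0.14 (adjusted p = 0.19), with a 95% interval from -0.50 to 0.08, but it passed with normexp background correction (-0.25, adjusted p = 0.0494). A second probe was well above background on 7 of 12 SC and 7 of 36 LD arrays only, so its differences from SC and within LD are not given. Omen (-1.86 to -0.50, median -1.33) was higher than SC by 0.47 (adjusted p = 0.0178). In a single fit of all 96 arrays this call was lost (adjusted p = 0.0708), as it was with slide as a random block (0.53, adjusted p = 0.113). It was also lost with scan day as a block on Omen and SC (0.57), which rests on 1 SC array. LD was lowest (-4.11 to -1.44, median -2.62), lower than SC by -0.92 (adjusted p = 4.56e-06), and IMF exceeded LD by 0.71 (adjusted p = 0.000276). The order was Omen, Kid, Inter, SC, IMF and LD, in which the 5 fat depots did not differ from their neighbours beyond their spread.

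MYLIP was nearly level over the fat depots, with tissue means between 1.67 in IMF and 2.01 in SC and no call for depot over the 5 depots (limma F test, adjusted p = 0.216). IMF ranged from 1.08 to 2.39 and SC from 1.5 to 2.69. The difference of -0.34 just passed (adjusted p = 0.0435), did not pass on the second probe (adjusted p = 0.147), and was -0.19 (adjusted p = 0.241) without the array least like each tissue. With scan day as a block on IMF and SC, which rests on 1 SC array, it was 0.16. LD, from 0.15 to 1.16, lay wholly below SC, at -1.34 (adjusted p = 1.48e-18). Kid did not pass against SC (-0.24, adjusted p = 0.251), but did on the second probe (-0.53, adjusted p = 0.0322). The F test for depot passed for the other 6 members tested, among a background of 87.2% of probes, but with scan day as a block HSD3B7 did not pass (adjusted p = 0.111).

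**Figure D2:**
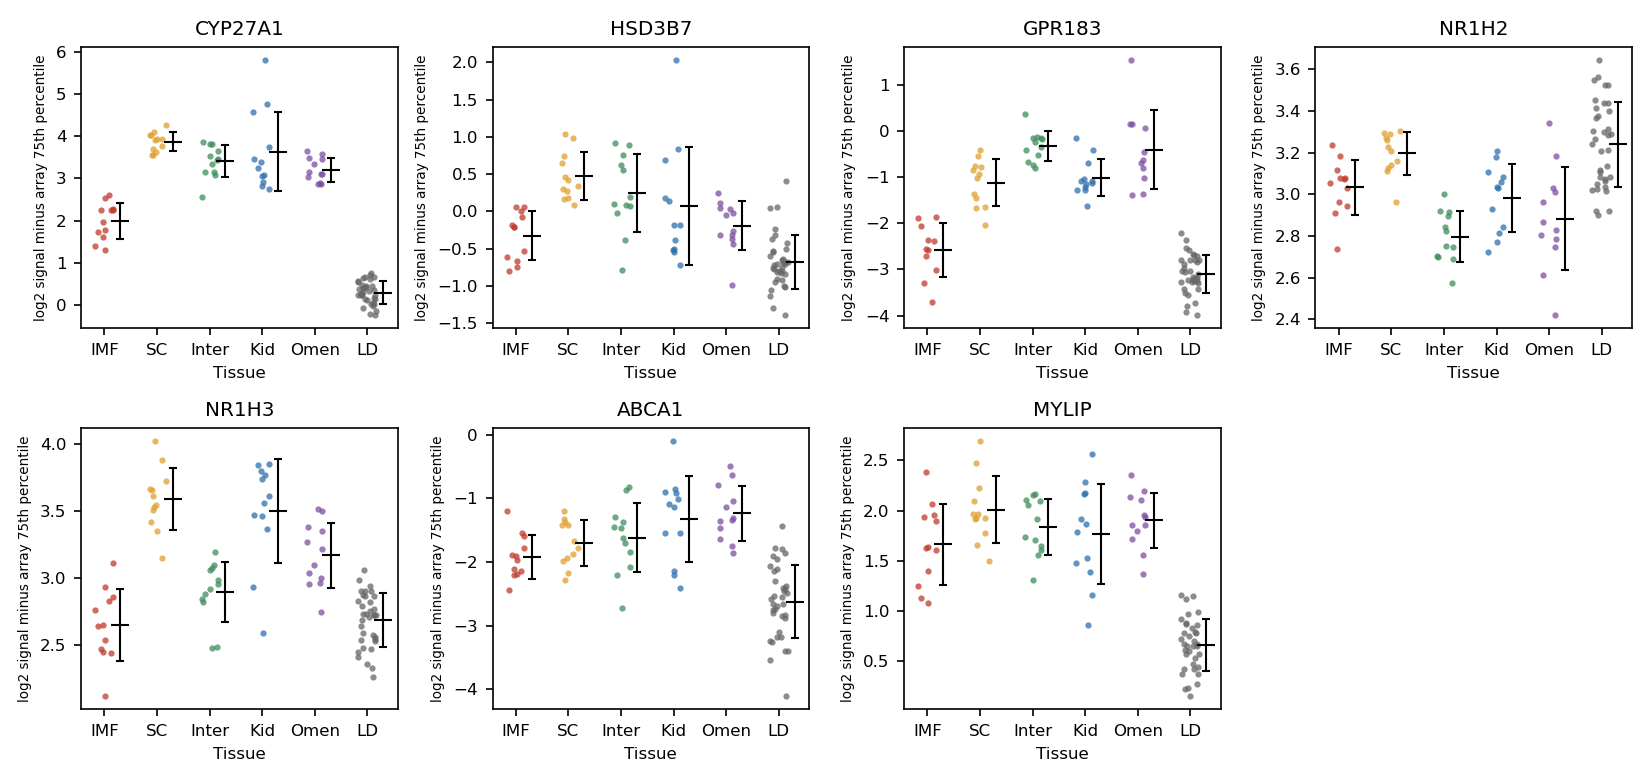
Levels of the other 7 members on each array (points), with the mean and SD of each tissue (bars), each panel with its own axis of log2 signal minus the 75th percentile of the array. CYP27A1, HSD3B7 and NR1H3 in IMF lie wholly below SC, GPR183 is highest in Inter and Omen, and ABCA1 and MYLIP overlap between IMF and SC.

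Of the other LXR target genes, 22 of 32 listed had a probe, and 10 were lower in IMF than in SC, 4 higher and 8 did not pass, with a median of -0.37. The number that passed was near the background of 64.2%. The lipogenic targets SCD and FASN, which desaturate and build fatty acids, were lowest, at -2.45 and -2.06 (adjusted p = 1.01e-07 and 1.33e-06). The transglutaminase TGM2 and the desaturase FADS2 were highest, each at 2.255 (adjusted p = 2.95e-08 and 1.2e-10). TGM2 was also higher than SC in Inter (1.28, adjusted p = 7.31e-05), Kid (2.23, adjusted p = 3.41e-08) and Omen (2.08, adjusted p = 2.14e-09), where SCD was lower, at -1.12, -1.09 and -1.21 (adjusted p = 1.11e-05, 5.88e-06 and 8.16e-07). Against LD, 12 of the 22 were higher in IMF and 5 lower (background 75.3%), with ELOVL5, a fatty acid elongase, the highest at 3.45 (adjusted p = 4.45e-20) and VEGFA the lowest at -1.29 (adjusted p = 5.09e-08).

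Genes of cholesterol synthesis and uptake driven by SREBP2, which 25-hydroxycholesterol is known to restrain, included 7 of 17 that were lower in IMF than in SC, 3 higher and 7 that did not pass, with a median of -0.20 (background 64.2%). IDI1, an isomerase of the isoprenoid route, was lowest at -1.46 (adjusted p = 1.39e-07) and FDFT1, squalene synthase, highest at 1.02 (adjusted p = 2.34e-07). In Kid 8 of the 17 were higher than SC and 1 lower (background 41.7%, 19.4% as higher), and in Omen 3 were higher and 8 lower (background 45.7%, 25.2% as lower).

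Counted over the 7 members other than CH25H, 6 passed between IMF and SC, all lower in IMF (background 64.2%, 33.0% as lower). With the deposited values, unscaled between arrays, 3 passed there, NR1H2 among them as higher in IMF (0.48, adjusted p = 0.00866). With scan day as a block, resting on 1 SC array, fewer passed in that comparison and between Omen and SC. Between Inter and SC 4 passed, 1 higher and 3 lower, where 48.8% of all probes passed. Between Kid and SC only NR1H2 passed, at -0.22 (adjusted p = 0.00934, background 41.7%), and it did not pass with quantile normalization, mean centring, normexp, the scaled deposited values or slide as a random block (adjusted p from 0.05 to 0.127). Its other 2 probes were lower in Kid than in SC by -0.49 and -0.51 (adjusted p = 9.65e-05 and 0.00156). ABCA1 passed there with scan day as a block (0.73, adjusted p = 0.0246), and within day 1 the mean of 5 Kid arrays exceeded that of 11 SC arrays by 0.80. Between Omen and SC 6 passed, 2 higher and 4 lower (background 45.7%). LD was lower than SC for 6 of 7 (background 82.9%, 40.4% as lower). IMF exceeded LD for 5 and was lower for 1, NR1H2 (background 75.3%, 36.1% as higher). That NR1H2 difference of -0.21 (adjusted p = 0.00467) was 0.20 (adjusted p = 0.000792) with quantile normalization and did not pass with normexp (-0.14, adjusted p = 0.0761). For the pairs used only to order neighbours, the background was 62.7% for IMF and Inter, 55.8% for IMF and Kid, 56.2% for IMF and Omen, 15.4% for Inter and Kid, 13.6% for Inter and Omen and 12.1% for Kid and Omen. Against LD it was 83.8% for Inter, 80.2% for Kid and 82.1% for Omen. Between LD and SC, 13 of 19 genes of oxysterol formation and inactivation were lower in LD and 3 higher, 13 of 22 other LXR targets were lower and 9 higher, and 12 of 17 SREBP2 targets were lower and 5 higher. The member counts stand beside backgrounds that are themselves high, and the comparisons with SC share the same 12 SC arrays.

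**Figure D3:**
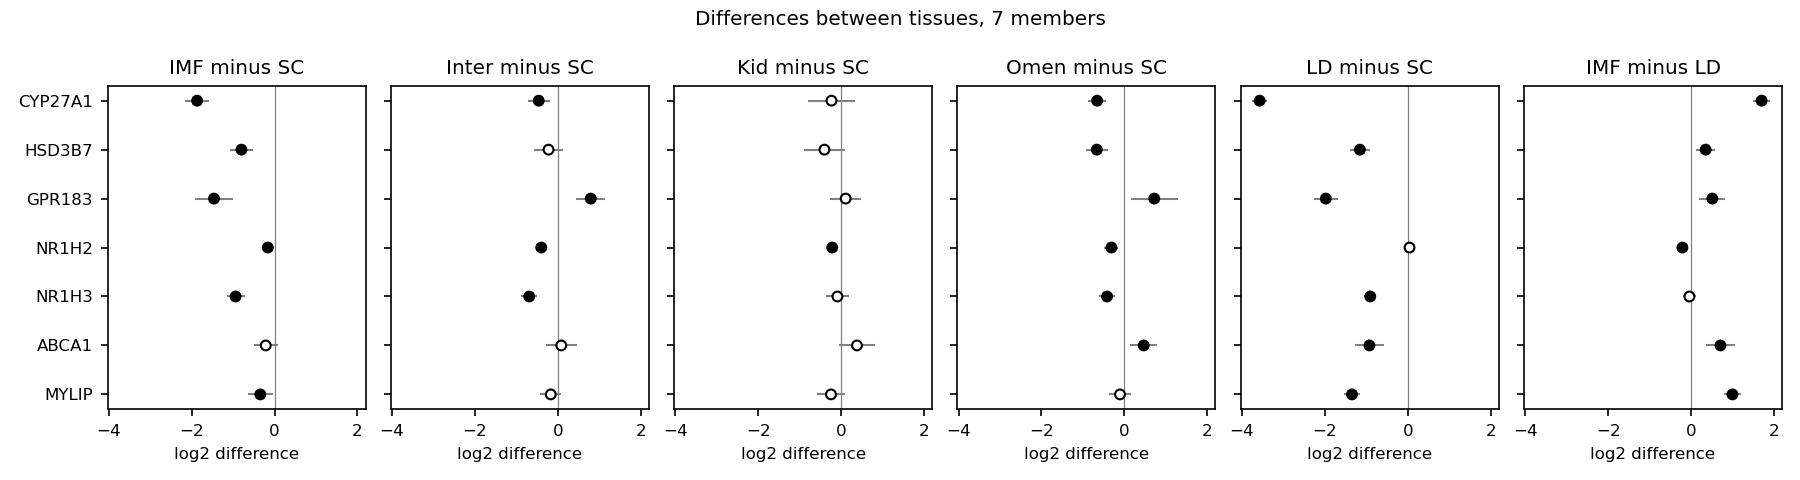
Difference in mean level (points) and its 95% interval (lines) for the 7 members in 6 comparisons of tissues, on the log2 scale. Filled points passed an adjusted p of 0.05 over all tested probes. All 7 points lie below 0 in IMF minus SC.

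No member followed CH25H over the tissues. Over the 6 tissue means, which give a description only, Pearson's r with CH25H was -0.04 for CYP27A1, -0.26 for HSD3B7, -0.08 for GPR183, -0.51 for NR1H2, -0.48 for NR1H3, 0.23 for ABCA1 and 0.21 for MYLIP. The genes whose means over 21 combinations of tissue, breed and feed were most like CH25H, of 20845 named probes well above background on at least 50% of arrays, were BMX (r = 0.92), CSRP2 (0.91), GJA5 (0.91), DPYSL5 (0.91) and ADCY2 (0.90). Once the mean of each depot and breed was removed from the 60 fat arrays, the most like were TFDP1 (0.58), PSMG1 (0.52), PTX3 (0.52), KHDRBS3 (0.50) and RAPGEF4 (0.50). These lists describe likeness only.

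Within single tissues, CH25H was related to the 7 other members in 42 relations, and 1 passed after Benjamini-Hochberg adjustment. In Omen, arrays with more CH25H had more GPR183, with Pearson's r = 0.93 (permutation p = 0.00014, adjusted p = 0.00588, n = 11) and Spearman's rho = 0.90 (permutation p = 0.00043, adjusted p = 0.0181). Without the 2 arrays farthest from the median of CH25H, r was 0.82. Breed means differed in Omen, from -0.64 in Angus to 0.46 in Hereford and 1.29 in Wagyu x Angus for CH25H, but r was 0.92 after breed means were taken off. Within scan day 3 it was 0.94 (n = 10).

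The same relation was not seen elsewhere: no other tissue gave a permutation p below 0.05 for GPR183, and whether the tissues differ in this relation was not tested. In IMF, where CH25H was highest, none of the 7 relations had a permutation p below 0.05. In Kid, ABCA1 against CH25H gave r = -0.72 (permutation p = 0.00845, n = 12) and rho = -0.69 (permutation p = 0.0165), neither of which passed adjustment (adjusted p = 0.177 and 0.346), and r was -0.63 without the 2 arrays farthest from the median of CH25H.

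**Figure D4:**
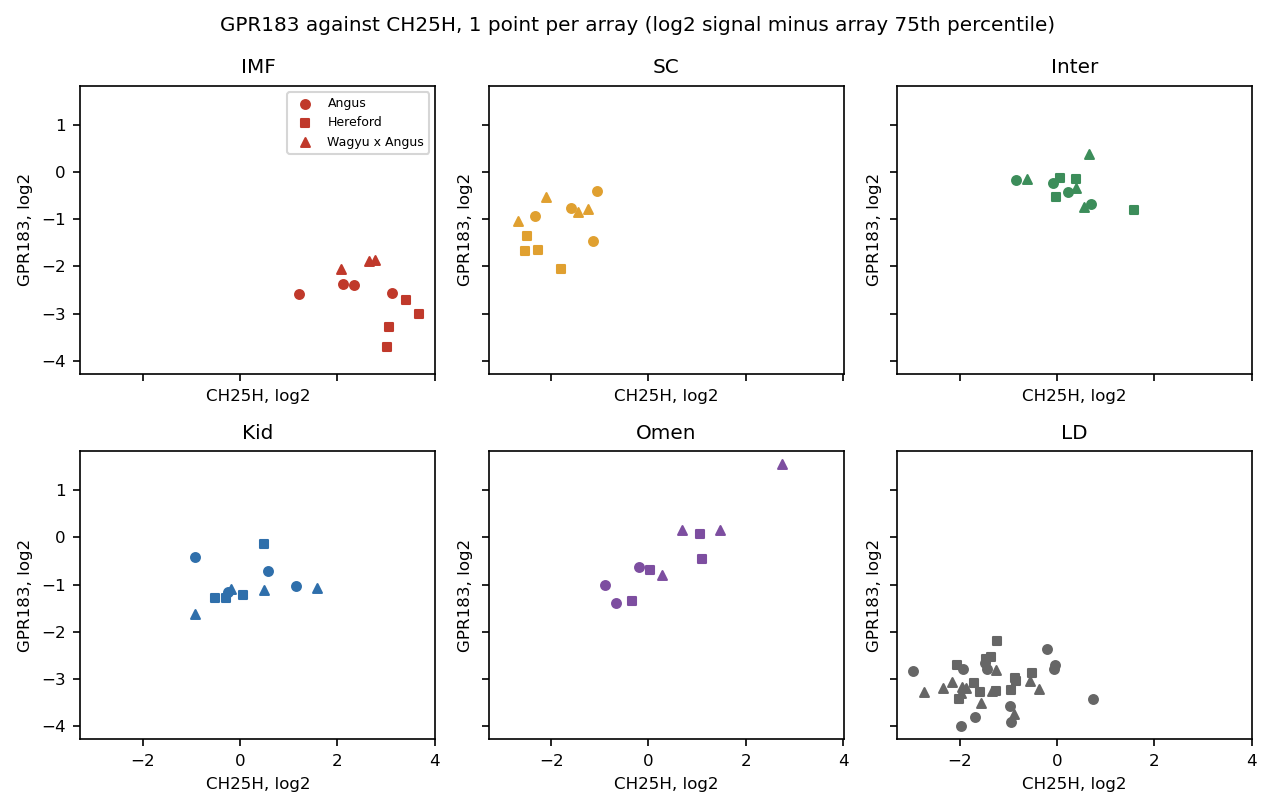
GPR183 against CH25H, 1 point per array and 1 panel per tissue, with breeds as symbols, both as log2 signal minus the 75th percentile of the array. The Omen arrays fall along a line (r = 0.93), whereas IMF lies at high CH25H and low GPR183.

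CH25H was also related to the mean level of the 9 marker lists within each tissue, 54 relations in all, chosen after the values were seen. Only smooth muscle in LD passed (r = 0.57, permutation p = 0.00022, adjusted p = 0.0119, n = 36). It rested on few arrays, since r was 0.32 without the 2 farthest and rho was 0.38 (adjusted p = 0.319). In IMF smooth muscle gave r = 0.63 (permutation p = 0.0275, adjusted p = 0.297, n = 12) and in LD macrophages gave r = 0.42, skeletal muscle -0.40 and adipocytes 0.39 (permutation p = 0.0115, 0.0156 and 0.0186, adjusted p = 0.251 each, n = 36), none of which passed.

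Breed had no detectable effect on any member over the 5 fat depots, where 3.2% of all probes passed limma's F test and 2 of the 8 members had an unadjusted p under 0.05. GPR183 came nearest (limma F test, adjusted p = 0.0777), with means of -1.37 in Hereford, -1.12 in Angus and -0.72 in Wagyu x Angus. As the depots came from shared steers that the labels do not mark, p-values for breed over the depots are likely too small. For CH25H the breed effect gave an adjusted p of 0.505. The CH25H means in IMF were 3.29 ± 0.32 in Hereford, 2.39 ± 0.38 in Wagyu x Angus and 2.20 ± 0.79 in Angus (SD, n = 4 each), and in SC -2.28 ± 0.34, -1.87 ± 0.66 and -1.53 ± 0.58. CH25H was chosen on its difference between these tissues, so no test of how that difference depends on breed is given for it. By limma 0 of the 7 other members passed that test, 0 had an unadjusted p under 0.05, and 0.00584% of all probes passed.

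In LD, CYP27A1 differed between breeds (limma F test, adjusted p = 0.00778), where 25.3% of all probes passed. Wagyu x Angus had the lowest mean, 0.10 ± 0.19, against 0.29 ± 0.25 for Hereford and 0.49 ± 0.19 for Angus (SD, n = 12 each), with overlap between all breeds. With scan day as a block the call was lost (adjusted p = 0.348), and on pasture alone too (adjusted p = 0.0556). No other member passed, but calls were gained under other settings. HSD3B7 passed with scan day as a block (adjusted p = 0.04) and NR1H2 on pasture alone (adjusted p = 0.0171). With normexp HSD3B7, GPR183 and NR1H2 passed (adjusted p = 0.031, 0.0363 and 0.0484). ABCA1 passed with quantile normalization (adjusted p = 0.0422) and without the array least like its tissue (adjusted p = 0.0429). CH25H gave an adjusted p of 0.397.

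Post-weaning supplement was compared with post-weaning pasture in LD with breed as a covariate, where 11.2% of all probes passed. The labels do not give the slaughter, and the effects of feed and slaughter cannot be told apart. The supplement arrays filled slides of their own, each with a single breed, so feed and slide cannot be told apart either. The p-values for feed take no account of slide. ABCA1 ranged from -4.11 to -1.44 on supplement (median -3.22, n = 12) and from -2.89 to -1.78 on pasture (median -2.47, n = 24). It was lower on supplement by -0.69 ± 0.15 (adjusted p = 0.0031), with the highest LD array also on supplement. Within scan day 1 the difference was -0.76 and within scan day 2 it was -0.58. With normexp background correction the call was lost (-0.30, adjusted p = 0.156).

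HSD3B7 was higher on supplement, ranging from -0.83 to 0.40 (median -0.61) against -1.39 to -0.24 on pasture (median -0.76). The difference was 0.37 ± 0.10 (adjusted p = 0.0196), and 0.28 (adjusted p = 0.113) with scan day as a block. The second probe gave 0.30 (adjusted p = 0.254). CH25H did not pass, at -0.21 with a 95% interval from -0.76 to 0.34 (adjusted p = 0.671), and neither did the other 5 members, although NR1H3 passed with the deposited values scaled by the 75th percentile (-0.30, adjusted p = 0.0385).

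Of the 22 other LXR targets, 3 were higher on supplement and 3 lower (background 11.2%), with SCD lowest at -1.06 (adjusted p = 0.000933) and VEGFA highest at 0.88 (adjusted p = 0.000233). In the remaining lists 2 of 19 genes of oxysterol formation and inactivation, 2 of 17 binding and transport proteins and 1 of 17 SREBP2 targets passed, each as lower. By limma 0 of 11 LXR partners and cofactors passed, and 1 had an unadjusted p under 0.05. Of the 9 adipocyte markers 3 were lower, and their mean level ranged from -0.58 to 0.86 on supplement and from -0.43 to 2.28 on pasture. Of the 7 endothelial markers 5 were higher. The part of these cells in ABCA1 and HSD3B7 was not tested.

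**Figure D5:**
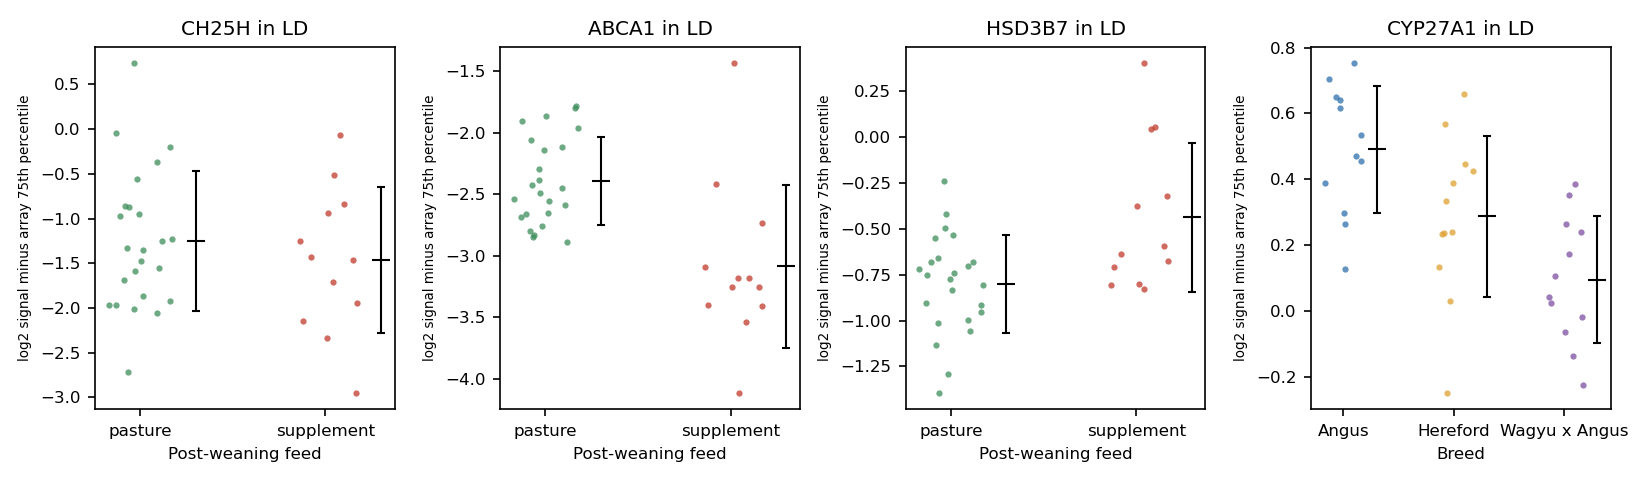
CH25H, ABCA1 and HSD3B7 in LD by post-weaning feed (24 pasture and 12 supplement arrays) and CYP27A1 in LD by breed (12 arrays each), as log2 signal minus the 75th percentile of the array, with the mean and SD as bars. ABCA1 is lower on supplement (-0.69) and CH25H overlaps throughout.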

How the data were processed

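The authors deposited intensity files per array, read with Agilent Feature Extraction 10.7.3.1 from bovine arrays hybridised with 1 Cy3-labelled sample made from 50 ng RNA. Their software subtracted the background from the processed signal. A second deposited file held 1 log2 value for each probe and array, the median signal less the median local background, without scaling between arrays. It defined the 34227 tested probes and served as an alternative. Here spots marked as outliers were dropped, spots of a probe averaged, and log2 processed signal was centred on the 75th percentile of each array. A gene was represented by its probe with the highest mean signal. Groups were compared with limma 3.58.1 (R 4.3.3), with Benjamini-Hochberg adjustment over all tested probes and a threshold of 0.05. Intervals are 95%. Correlations used 100000 permutations, two-sided. Alternatives were other scalings, background corrections, covariates, blocks and array sets. Named genes of a pathway list were those with the largest difference in each direction among called genes. The members and lists were chosen with earlier results of these data known. The number of arrays limits precision. The reference gene table is of another assembly than the array design, so no coordinates are given. The script was tested on simulated data. No pair of arrays held identical values.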

Additional observations from a re-analysis of the deposited data

Results flagged for a closer look

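The second CH25H probe, which is outside the tested set, was well above background on 2 of 12 IMF arrays and on 1 Omen array, and on none of the SC, Inter, Kid and LD arrays. None of the 21 groups of tissue, breed and feed held a CH25H array far from the others of its group.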

How the results depend on the processing

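The replicate number of the labels is the position of an array on its slide and repeats within groups. With a replicate block no call changed: 6 members other than CH25H passed between IMF and SC, as without it. Deviations of arrays with the same number correlated by 0.011 on average over pairs of different tissues. Over all single results and alternatives, 895 of 983 kept their direction and side of the threshold, 46 lost a call, 17 gained one, 21 changed sign and 4 values of CH25H, which has no test, moved by more than 1 SD. For IMF minus SC, scan day as a block gave CH25H 3.79 over all 96 arrays and 3.68 on the 2 tissues. The deposited values gave it 3.08 for Inter minus SC and 2.83 for Kid minus SC, against 2.145 and 1.998.

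The deposited log2 values, which have no scaling between arrays, changed most. By the median 75th percentile of the log2 processed signal, IMF, Inter, Kid and Omen arrays (9.83, 10.2, 10.1 and 10.01) were brighter than SC and LD arrays (9.05 and 9.14). With the deposited values 3 members passed between IMF and SC and 5 between Kid and SC. Differences that changed sign were, in IMF minus SC, NR1H2 0.48 and MYLIP 0.29. In Inter minus SC they were CYP27A1 0.57, HSD3B7 0.78, NR1H2 0.63, NR1H3 0.31 and MYLIP 0.84. In Kid minus SC they were NR1H2 0.72, NR1H3 0.82 and MYLIP 0.68. In Omen minus SC they were CYP27A1 0.18, HSD3B7 0.16, NR1H2 0.52, NR1H3 0.40 and MYLIP 0.73. In IMF minus LD they were NR1H2 0.56 and NR1H3 0.77. Quantile normalization turned NR1H2 to -0.37 in LD minus SC and 0.20 in IMF minus LD, and NR1H3 to 0.29 in IMF minus LD. Scan day as a block on IMF and SC turned MYLIP to 0.16.

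Scan day as a block on the 2 tissues left 3 members between IMF and SC, 2 between Kid and SC and 1 between Omen and SC, and the difference of CH25H between IMF and SC was 3.68. With only 1 SC array on day 3, this block left the comparisons with IMF and Omen resting on that array. Inter and SC shared no scan day, so that block could not be fitted for them. Slide as a random block left 2 members between Inter and SC. Between Kid and SC, 0 passed with quantile normalization, mean centring, normexp, the scaled deposited values or the slide block, and 2 with the mean over probes, which takes in an ABCA1 probe near background, or without the array least like each tissue. Between supplement and pasture, 1 passed with normexp and 1 with scan day as a block. For breed in LD, 2 passed with quantile normalization, 4 with normexp and 2 without the array least like its tissue. The causes were not tested. Leaving out the array least like its tissue was chosen after seeing the data. In Omen that array has no GPR183 value, so the relation with CH25H was unchanged.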
